A study of Oryza sativa Japonica Group with 12 samples.

Results

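The cellulose synthase superfamily of rice was followed through 2 leaves of wild-type plants and of plants that over-express the microRNA miR156. Members were the genes whose symbol or synonym in the gene table starts with CESA or with CSL and a subfamily letter from A to H, each followed by a number. The array annotation names 29 of the 35 such genes in the table, on 37 probe sets, out of 17905 genes and 57194 probe sets in all. They comprise 9 CESA genes and 20 cellulose synthase-like (CSL) genes, of which 4 are CSLA, 5 CSLC, 4 CSLD, 2 CSLE, 4 CSLF and 1 CSLH. CSLA3, CSLA4, CSLE6, CSLF3, CSLF4 and CSLF9 are not named by the array annotation and were not analysed here. Each gene was read through its brightest probe set over the 12 arrays. The mean signal of 26 genes lay above the 40th percentile of all probe sets, a signal of 41.57. The other 3, CSLC3, CSLD1 and CSLF7, lay under it and are marked dim.

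Total RNA of Oryza sativa Japonica Group leaves was hybridised to an Affymetrix rice array, on which several short probes together read 1 transcript. The 4 groups held 3 arrays each: leaf L3 of wild type (WT), leaf L3 of the over-expression plants (OE), and leaf L6 of each. WT plants 1, 2 and 3 and the OE lines Md15, Md43 and Mh9, which are replicates 1, 2 and 3, gave 1 L3 and 1 L6 array each at an age of 45 days. Leaves were numbered in the order in which they emerged on the main tiller, so L3 was the older leaf, and leaf age and leaf position cannot be told apart. OE seedlings had been selected on hygromycin before all plants moved to hydroponic culture, and no transgenic line without raised miR156 is among the groups. The promoter behind the transgene is not given in the sources used here, and miR156 itself was not measured on the array. Whole leaves mix many cell types, so fewer cells of a type and less RNA per cell cannot be told apart.

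Cellulose is spun into the plant cell wall by plasma membrane complexes built of CESA proteins. In rice, CESA4, CESA7 and CESA9 are the subunits needed for the thick secondary walls of xylem and fibre cells, and their mutants have brittle culms, whereas CESA1, CESA3, CESA5, CESA6 and CESA8 are generally placed with the primary walls of growing cells. CSL proteins make the backbones of other wall polysaccharides: CSLA proteins make mannans, CSLC proteins the xyloglucan backbone (known from Arabidopsis), and CSLF and CSLH proteins the mixed-linkage glucan of grasses. CSLD proteins act in tip growth and in the walls of dividing and expanding cells, and the product of CSLE proteins is not settled.

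All 9 CESA genes gave a higher signal in L6 than in L3 of WT and passed the test, which was limma on log2(signal + 16) with a Benjamini-Hochberg adjusted p under 0.05. The 3 secondary wall genes had the largest differences, of 2.61 to 3.44 on the log2 scale, and the other 6 differed by 1.33 to 1.98. Of the 20 CSL genes, 7 rose in L6 and 3 fell. In all, 19 of the 29 genes were called, 16 higher and 3 lower, against 49.3% of all genes called in either direction, 22.4% higher and 26.8% lower. The leaves of WT did not overlap for 21 of the 29 genes, 17 of them higher in L6, against 59.4% of all genes in either direction and 26.0% higher. The median log2 difference was 1.33 over the 29 genes and -0.02 over all genes.

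CESA4 (gene ID 4324625) had L3 signals of 1211, 49.8 and 53.6 in WT plants 1, 2 and 3, and L6 signals of 1996, 1744 and 2024. In OE lines Md15, Md43 and Mh9 its L3 signals were 560, 593 and 66.9, and its L6 signals 1851, 1448 and 1601. Every L6 array was above every L3 array of its genotype, but L3 itself was split, with WT plant 1 high, Md15 and Md43 intermediate, and WT plants 2 and 3 and Mh9 low. The leaf difference in WT was 3.44 ± 1.02 (SE, n = 3 arrays per group) on the log2 scale, which is 10.9-fold with the added constant (adjusted p = 0.0255). In OE it was 2.42 ± 1.02 and missed the threshold (adjusted p = 0.101). The second CESA4 probe set gave 598, 178 and 188 in L3 of WT and 335, 384 and 201 in L3 of OE. Its L6 signals were 987, 941 and 1112 in WT and 1130, 768 and 798 in OE. With second-brightest probe sets 8 CESA genes were called in WT and 4 in OE, CESA4 among them in both. Of the CESA genes only CESA1, CESA2, CESA3 and CESA4 have a second probe set, and the others kept their brightest in this setting.

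CESA9 (gene ID 4347093) showed the same split. Its L3 signals were 732, 30.2 and 29.2 in the WT plants and 345, 410 and 43.6 in the OE lines, and its L6 signals were 1168, 1035 and 1248 in WT and 1229, 900 and 1063 in OE. The L3 and L6 arrays of a genotype did not overlap. The log2 difference between the leaves was 3.32 ± 0.98 in WT (adjusted p = 0.0254) and 2.36 ± 0.98 in OE (adjusted p = 0.0976).

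CESA7 (gene ID 4348853), the remaining secondary wall subunit, gave 769, 84.9 and 83.8 in L3 of WT and 328, 389 and 93.2 in L3 of OE. Its L6 signals were 1218, 1106 and 1295 in WT and 1293, 831 and 1081 in OE, again with no overlap between the leaves of a genotype. Read through the brightest probe sets, CESA7 was the only secondary wall subunit called in both genotypes. Its differences were 2.61 ± 0.71 in WT (adjusted p = 0.0173) and 2.11 ± 0.71 in OE (adjusted p = 0.0473). The OE call was lost with the plant as a fixed block (adjusted p = 0.0545) and as a random block (adjusted p = 0.0564). Below, the plant as a block means the fixed block.

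**Figure D1:**
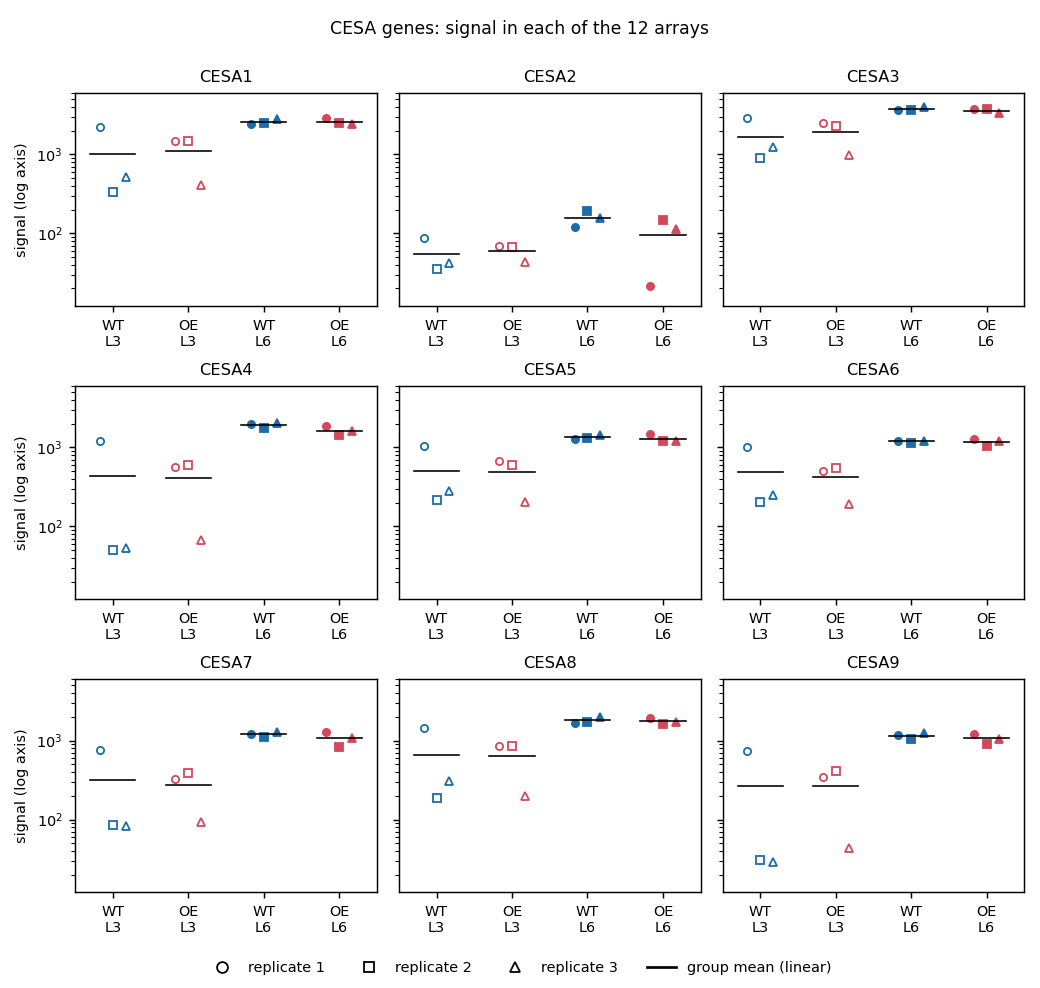
Signal of the 9 CESA genes in each of the 12 arrays (log axis), with 1 panel per gene. Open symbols are L3, filled symbols L6, blue WT and red OE; the symbol shape gives the replicate and the black line the mean of the group's signals. In 8 panels all 3 L6 arrays of each genotype lie above its L3 arrays, and the first WT plant stands above the other L3 arrays in all 9.

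The primary wall CESA genes followed the same arrays. CESA6 (gene ID 4342850) had L3 signals of 1029, 204 and 249 in WT and 509, 557 and 190 in OE, against L6 signals of 1226, 1148 and 1220 in WT and 1264, 1058 and 1200 in OE. No L3 array reached the L6 arrays of its genotype, and WT plant 1 came nearest. CESA6 rose in both genotypes, by 1.63 ± 0.52 in WT (adjusted p = 0.035) and 1.58 ± 0.52 in OE (adjusted p = 0.0434). The OE call was lost with the plant as a random block (adjusted p = 0.052). In WT, CESA8 rose by 1.98, CESA1 by 1.82, CESA5 by 1.72 and CESA3 by 1.33, with adjusted p from 0.0275 to 0.0431. With the plant as a random block CESA8 and CESA1 fell short (adjusted p = 0.0503 and 0.0516), and that setting called 6 CESA genes in WT and 0 in OE. In OE those 4 genes differed by 1.00 to 1.70 and none passed, CESA5 coming closest at an adjusted p of 0.0514.

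The leaf difference of CESA1, CESA3, CESA4, CESA5, CESA6, CESA7, CESA8 and CESA9 was above 0 in 6 of 6 plants, a pattern that 27.4% of all genes shared. Its size varied between plants. For CESA4 the log2 difference was 0.71 in WT plant 1, 4.74 in plant 2 and 4.87 in plant 3, and 1.70, 1.27 and 4.29 in Md15, Md43 and Mh9. For CESA1 it ran from 0.16 in WT plant 1 to 2.88 in WT plant 2.

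CESA2 (gene ID 4334515) was the exception. Its L3 signals were 87.4, 34.8 and 42.3 in WT and 69.2, 66.5 and 43.0 in OE, and its L6 signals 120, 193 and 157 in WT and 21.4, 148 and 113 in OE. The value of 21.4 in L6 of Md15 was the lowest of all 12. CESA2 rose in WT by 1.34 ± 0.47 (adjusted p = 0.0498), a call lost with the plant as a fixed or random block (adjusted p = 0.0822 and 0.0567), and differed by 0.31 ± 0.47 in OE (adjusted p = 0.667). Without that array the OE difference was 0.97 (adjusted p = 0.0453). The second CESA2 probe set, which was dim, gave the opposite calls. It differed by 0.15 ± 0.07 in WT (adjusted p = 0.134) and was higher in L6 of OE by 0.33 ± 0.07 (adjusted p = 0.00767). In L6 of Md15, Md43 and Mh9 it read 39.0, 37.8 and 39.5, so it showed no drop in Md15.

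On the L6 array of Md15 the second probe sets of CESA1 and CESA3 were low, as was the brightest of CESA2. The second CESA1 probe set gave 16.8 there against 126 and 101 in L6 of Md43 and Mh9, and the second CESA3 probe set 95.9 against 607 and 574, whereas the brightest probe sets of both genes were not low in it. The 5′ probe set of the spiked-in DapX control, which reads a transcript added to every sample, read 26.5 on this array and 82.9 to 126 on the others, and its 3′ probe set read 1083, inside the range of 938 to 1309 on the others. Its part in the CESA2 value was not tested.

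**Figure D2:**
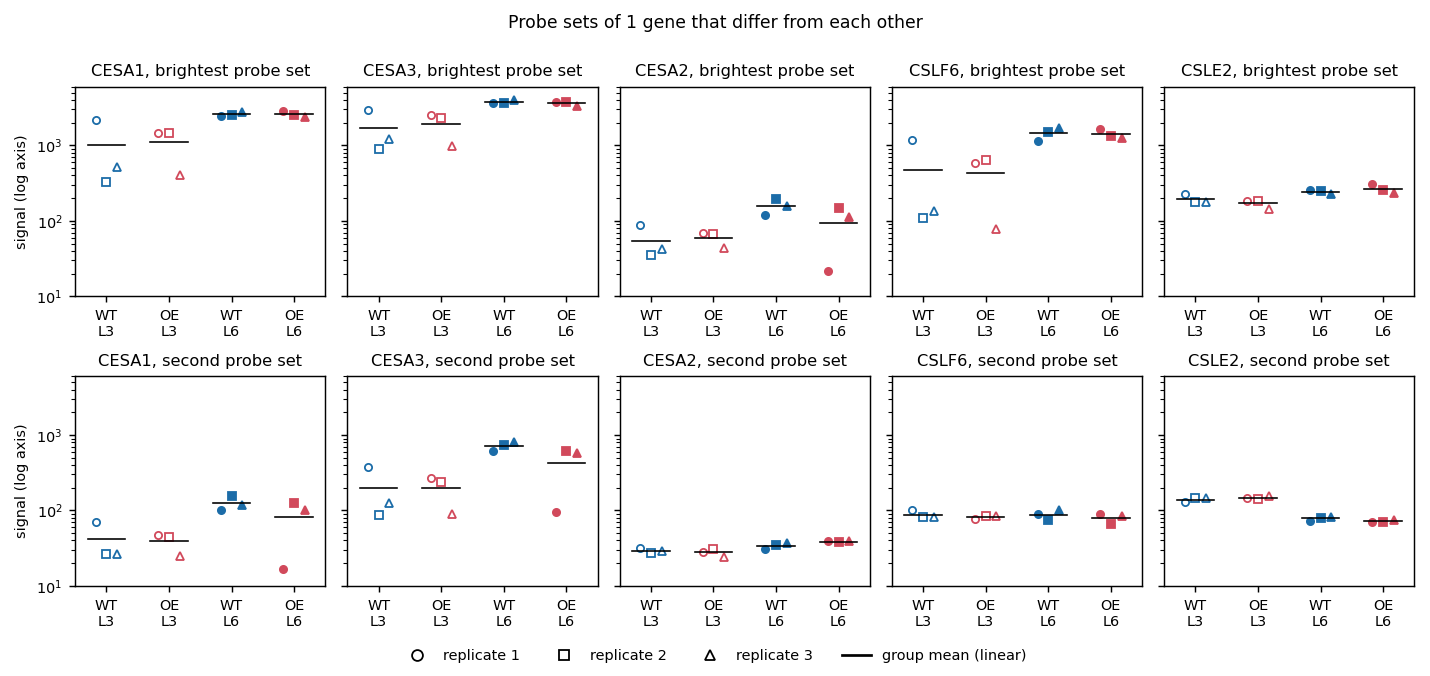
Brightest (top row) and second probe set (bottom row) of CESA1, CESA3, CESA2, CSLF6 and CSLE2 in the 12 arrays, as signal on a log axis with the symbols of the CESA plot. The first OE replicate drops in L6 in the second probe sets of CESA1 and CESA3 and in the brightest of CESA2, the second CSLF6 probe set stays between 66.2 and 103 in every array, and the second CSLE2 probe set is lower in L6.

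The spread within L3 was the widest feature of the CESA family. The median SD of the log2 values over the 9 CESA genes was 1.40 for the WT L3 arrays and 1.03 for those of OE, and 0.11 and 0.16 for the L6 arrays of WT and OE. Over all genes the median SD was 0.15, 0.13, 0.12 and 0.12. WT plant 1 gave the highest of the 6 L3 signals for 9 of 9 CESA genes and 14 of 20 CSL genes, and for 28.5% of all genes. The highest WT_L3 signal of CESA9 was 25.1 times the lowest, and that of CESA4 24.3 times.

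Summed markers of dividing cells and of phloem followed this split, and those of other cell states did so in part or not at all. The summed signal of 21 genes of dividing cells (cyclins, CDK inhibitors, MCM and PCNA, 2 of them dim) was 5756, 2026 and 1934 in WT_L3 and 3791, 4133 and 1876 in OE_L3, and 5722 to 8532 in L6 of both genotypes. That is the order of the CESA genes: WT plant 1 high, Md15 and Md43 between, and the other 3 low. Of the 21 genes, KRP1, KRP4, KRP5, CYCA1-4, MCM9 and the 2 dim ones did not share this order. The 13 genes of lignifying xylem and fibre cells (3 dim) summed to 7149, 4790 and 3974 in WT_L3 and to 4055, 6513 and 5738 in OE_L3, and to 7068 to 9551 in L6. Within OE_L3 the order of this sum was another one, with Md15 lowest. CAD2 (1764, 3226 and 3663 in OE_L3) and 4CL3 (1048, 1687 and 1624) were its brightest genes. LAC3, LAC4, LAC7, LAC10 and PRX74 did have the L3 order of the CESA genes, and the other genes of the list did not. LAC4 gave 300, 14.6 and 10.7 in WT_L3 and 136, 194 and 16.4 in OE_L3. The 3′ rice actin control, in the order of the CESA genes, read 2741, 1000 and 1071 in WT_L3, 2033, 2170 and 983 in OE_L3, and 2452 to 2953 in L6. By contrast 4 photosynthesis genes (1 dim) summed to 19793 to 25745 over all 12 arrays, which places leaf mesophyll RNA in every array. The 3 shoot meristem genes were all dim (summed 70.3 to 93.4), and 2 root genes, 1 dim, summed to 101 to 393. The 3 phloem genes summed to 960, 554 and 579 in WT_L3, to 937, 802 and 657 in OE_L3, and to 782 to 1123 in L6. Their L3 order was that of the CESA genes. It came from SWEET11 (460, 16.4 and 27.3 in WT_L3, and 307, 295 and 18.1 in OE_L3), and SUT1 and SWEET14 did not share it. Sums ran from 2178 to 3314 for 3 senescence genes. The part of these cell states in the CESA values was not tested.

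In WT, 10 of the 21 dividing-cell genes were called higher in L6, and 2 were in OE, against 22.4% and 17.2% of all genes. The OE share of calls was below that of all genes. Their median log2 difference was 1.60 in WT and 1.37 in OE, against -0.02 over all genes in each. In the interaction 0 of the 21 were called, so the unequal counts are not shown to reflect a difference between the genotypes. Among the lignification genes 6 of 13 rose and 1 fell in WT, and 6 rose in OE. Of all genes 26.8% fell in WT and 25.4% in OE. Counts for the other lists were 2 of 4 photosynthesis genes higher in each genotype, 0 of 3 meristem genes, 1 of 3 phloem genes lower in each (SUT1, a sucrose transporter), 1 of 3 senescence genes lower in each (SGR, which acts in chlorophyll breakdown), and 1 of 2 root genes lower in WT and 0 in OE.

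Which arrays were kept decided how many CESA genes were called between the leaves of WT. Without WT_L3 replicate 1, 24 of the 29 genes were called, including 9 CESA genes, and 56.3% of all genes. Without replicate 2 or without replicate 3 of WT_L3, 2 genes were called in each case and 0 CESA genes, while 30.6% and 29.8% of all genes were called. Without 1 of the WT_L6 arrays 4 to 6 members and 32.5% to 43.8% of all genes were called. CSLE1 and CSLC2 were called under all 23 alternative settings in both genotypes.

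In OE the leaf comparison called 12 of the 29 genes, 9 higher and 3 lower, against 42.6% of all genes in either direction, 17.2% higher and 25.4% lower. The share of members called, 41.4%, was thus near that of all genes. CESA6 and CESA7 were the 2 of 9 CESA genes called, although 8 of 9 had non-overlapping leaves, all higher in L6. Over the 29 members the leaves did not overlap for 20 genes higher in L6 and 4 lower, while 30.8% of all genes were non-overlapping and higher and 34.0% non-overlapping and lower. The count of calls was 3 without Mh9 in L3 (25.6% of all genes), 7 without Md43 in L6 (28.3%), 7 without Mh9 in L6 (33.5%), and 22 without WT_L3 replicate 1 (50.7%), which enters through the spread shared by the 4 groups. Fitted on only the groups compared, the order turned, with 8 members called in WT (3 CESA genes, 38.1% of all genes) and 17 in OE (5 CESA genes, 42.4%). No member passed the test of the difference between the leaf differences of the genotypes (the interaction), so the unequal numbers of calls are not shown to reflect a difference between WT and OE.

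**Figure D3:**
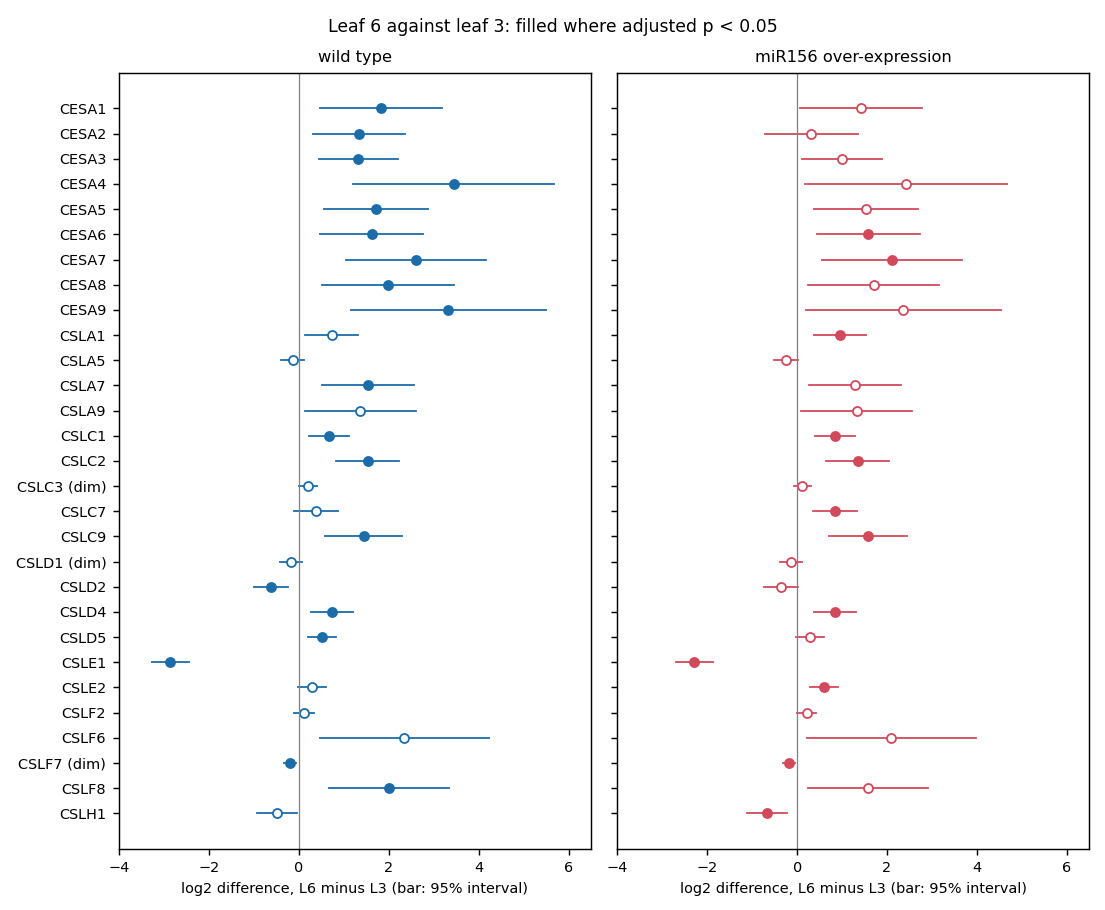
L6 minus L3 difference on the log2(signal + 16) scale for the 29 genes, WT on the left and OE on the right. Points are estimates, bars 95% confidence intervals of the limma fit, and filled points have an adjusted p under 0.05. The CESA estimates lie to the right of 0 in both panels, and CSLE1 lies far to the left with a short bar.

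Of the CSL genes CSLE1 (gene ID 4347370) had the clearest leaf difference, and it ran against the CESA genes. Its L3 signals were 893, 984 and 1026 in WT and 688, 972 and 775 in OE, and its L6 signals 153, 101 and 110 in WT and 163, 116 and 182 in OE. All 6 L3 arrays were above all 6 L6 arrays, and WT plant 1 did not stand apart. CSLE1 fell in L6 by 2.86 ± 0.19 in WT (adjusted p = 4.36e-06) and had a difference of -2.29 ± 0.19 in OE, also called (adjusted p = 2.31e-05). Its probe set is of a type that can bind several transcripts of a gene.

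The other CSLE gene, CSLE2 (gene ID 4330583), has 3 probe sets that went different ways. The brightest gave 230, 177 and 179 in WT_L3, 185, 184 and 142 in OE_L3, 254, 247 and 228 in WT_L6 and 308, 255 and 234 in OE_L6. It was higher in L6 of OE by 0.60 ± 0.14 (adjusted p = 0.0105) and differed by 0.30 ± 0.14 in WT (adjusted p = 0.129). The second, of a type that can bind related genes, gave 128, 144 and 147 in WT_L3 and 73.0, 80.2 and 82.2 in WT_L6, and 145, 143 and 158 in OE_L3 against 69.7, 69.9 and 74.9 in OE_L6. It fell by 0.72 ± 0.08 in WT (adjusted p = 0.000142) and by 0.91 ± 0.08 in OE (adjusted p = 3.98e-05). The third differed by -0.17 ± 0.11 in WT (adjusted p = 0.271) and fell by 0.43 ± 0.11 in OE (adjusted p = 0.0164). The direction of CSLE2 therefore depends on the probe set.

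The mixed-linkage glucan genes of the CSLF subfamily did not move as a block. CSLF6 (gene ID 4344719), the main synthase of this glucan in grasses, gave 1191, 109 and 136 in WT_L3 and 588, 646 and 77.3 in OE_L3, and 1151, 1519 and 1689 in WT_L6 and 1664, 1337 and 1264 in OE_L6. Its L3 arrays split as those of CESA4 did, and L3 of WT plant 1 was above that plant's own L6. The log2 difference between the leaves was 2.35 ± 0.85 in WT (adjusted p = 0.0562) and 2.09 ± 0.85 in OE (adjusted p = 0.0896), neither passing. The other 2 CSLF6 probe sets stayed between 66.2 and 103 in all arrays, with differences of -0.05 to 0.15 and adjusted p of at least 0.282.

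CSLF8 (gene ID 4343552) rose in WT by 2.01 ± 0.61 (adjusted p = 0.0275), from 13.8 to 150 in L3 to 175 to 227 in L6. In OE it differed by 1.58 ± 0.61 (adjusted p = 0.0749). CSLF2 (gene ID 4343553), which lies next to CSLF8 in the gene table with 0 genes between them, gave 161 to 234 over all arrays and differed by 0.12 ± 0.10 in WT (adjusted p = 0.393) and by 0.21 ± 0.10 in OE (adjusted p = 0.142). This pair was singled out after its values were seen.

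CSLF7 (gene ID 4348365) was dim throughout, at 19.2, 20.8 and 18.6 in WT_L3, 15.8, 17.4 and 17.9 in OE_L3, 13.7, 15.9 and 15.8 in WT_L6, and 12.2, 15.2 and 12.5 in OE_L6. The leaves of a genotype did not overlap but lay within a few signal units of each other. CSLF7 fell in L6 by 0.19 ± 0.06 in WT (adjusted p = 0.0279) and by 0.18 ± 0.06 in OE (adjusted p = 0.0425). Neither call held with the plant as a block (adjusted p = 0.0562 in WT and 0.0769 in OE), and the OE call was also lost with the plant as a random block (adjusted p = 0.0519).

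CSLH1 (gene ID 4348359), from the other subfamily with a role in mixed-linkage glucan (known from barley), was higher in L3. Its signals were 465, 436 and 465 in WT_L3, 527, 440 and 554 in OE_L3, 387, 280 and 301 in WT_L6, and 425, 220 and 318 in OE_L6. In each genotype the lowest L3 array was above the highest L6 array. The fall of 0.67 ± 0.20 in OE passed (adjusted p = 0.0299), and the WT difference was -0.49 ± 0.20 (adjusted p = 0.0872).

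Of the 5 CSLC genes 3 rose in WT and 4 in OE. CSLC9 (gene ID 4334258) gave 192, 56.0 and 69.8 in WT_L3, 119, 88.2 and 36.0 in OE_L3, 290, 304 and 250 in WT_L6, and 283, 254 and 223 in OE_L6. Its leaves did not overlap in either genotype, and WT plant 1 was again the highest L3 array. It rose by 1.45 ± 0.39 in WT (adjusted p = 0.017) and 1.58 ± 0.39 in OE (adjusted p = 0.0133). CSLC2 rose by 1.54 in WT and 1.35 in OE, and CSLC1 by 0.67 and 0.84. CSLC7, whose only probe set is of a type that can bind related genes, rose in OE by 0.84 and differed by 0.38 in WT (adjusted p = 0.22). The dim CSLC3 ran from 15.9 to 27.8 and was called in neither genotype.

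Mannan synthase genes of the CSLA subfamily were less uniform. CSLA7 rose in WT by 1.53 (adjusted p = 0.0278) and differed by 1.29 in OE, where it passed with the plant as a block (adjusted p = 0.0603 without the block and 0.0451 with it). CSLA1 rose in OE by 0.95 (adjusted p = 0.0225) and differed by 0.73 in WT (adjusted p = 0.0561). CSLA9 differed by 1.36 in WT and 1.32 in OE, called in both with the plant as a block (adjusted p = 0.0297 and 0.0371) and in neither without it (0.0876 and 0.103). CSLA5 stayed between 166 and 242 over all arrays and was called in neither genotype. The table lists CSLA9 also as a synonym of the gene called CSLA1 here (gene ID 4328585), so these names are uncertain, although the 2 genes have separate IDs and probe sets.

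In the CSLD subfamily, CSLD2 (gene ID 4339895) gave 343, 418 and 384 in WT_L3, 335, 350 and 373 in OE_L3, 305, 223 and 212 in WT_L6, and 356, 236 and 240 in OE_L6. The WT leaves did not overlap, and the OE leaves did, through the L6 array of Md15. CSLD2 fell in L6 of WT by 0.61 ± 0.17 (adjusted p = 0.0197, and 0.0578 with the plant as a block) and differed by -0.35 ± 0.17 in OE (adjusted p = 0.15). CSLD4, whose rice mutants have narrow leaves, rose in both genotypes, by 0.73 in WT and 0.85 in OE. Its only probe set is of a type that can bind related genes, and its L3 signals were low, at 22.7 to 50.6. CSLD5 rose in WT by 0.51 and differed by 0.30 in OE (adjusted p = 0.143). CSLD1, which acts in root hairs, was dim at 17.9 to 32.3 and was called in neither genotype.

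**Figure D4:**
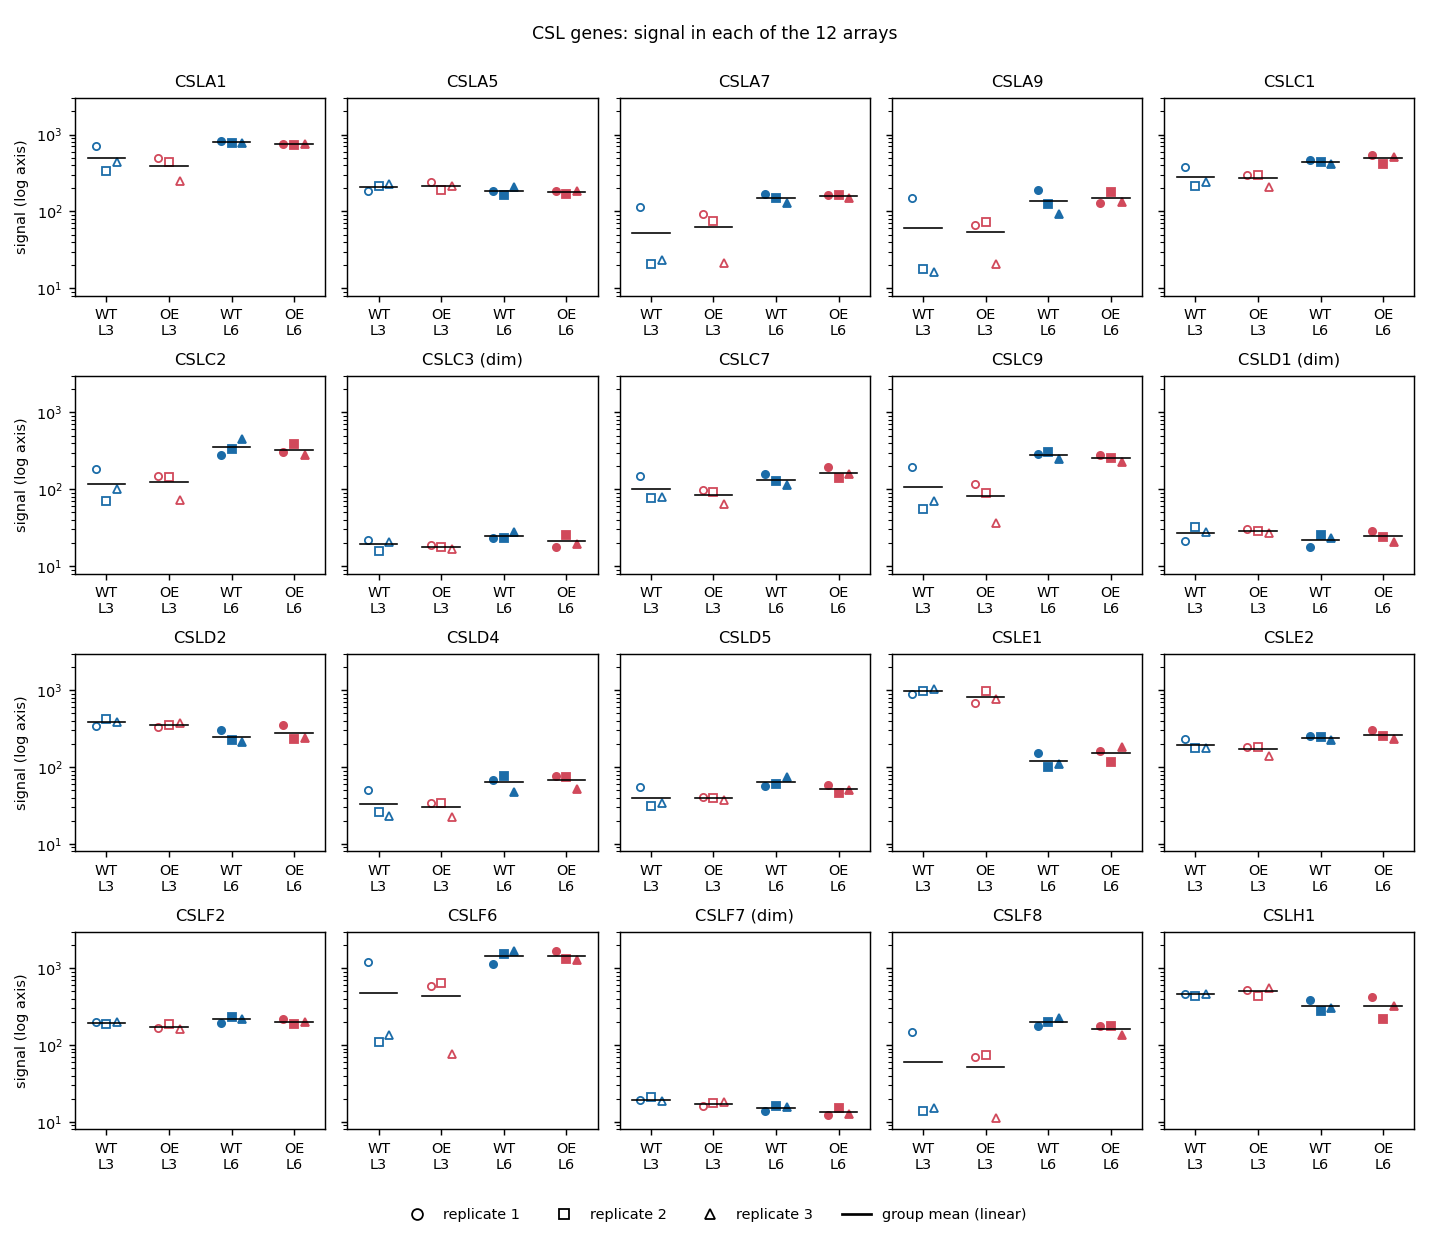
Signal of the 20 CSL genes in each of the 12 arrays (log axis), with the symbols of the CESA plot. CSLE1 and CSLH1 lie higher in L3, CSLF6, CSLF8, CSLA7 and CSLA9 show the wide L3 spread of the CESA genes, and CSLA5 and CSLF2 are level.

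The shared pattern was described by correlations of the log2 signals over the 12 arrays, whose points share the leaf difference and the split of L3. Pairs among CESA4, CESA7 and CESA9 reached 0.992 to 0.999, pairs among the 5 primary wall genes 0.981 to 0.998, and pairs between these sets 0.976 to 0.993, so the primary and secondary wall genes were not separated by their pattern in these leaves. With each group's mean taken out, the primary to secondary pairs still reached 0.943 to 0.996. CESA2 correlated with CESA4 at 0.626, CSLF8 at 0.989 and CSLF6 at 0.986. CSLE1 stood at -0.77 with the group means in, and at -0.065 with them taken out.

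Outside the family, 2429 named genes were ranked by their likeness to the mean of CESA4, CESA7 and CESA9 over the 12 arrays. The first 5 were BC1 (r = 0.998), UGD4 (0.997), KIN14H (0.996), FTIP7 (0.996) and XTH8 (0.996, listed as OsXRT5). The gene at rank 40 still reached 0.989, so values near these were not particular to the first 5. BC1 encodes the COBRA-like protein whose loss gives a brittle culm, and UGD enzymes make UDP-glucuronic acid, a precursor of matrix polysaccharides. BC1 gave 477, 23.9 and 23.6 in WT_L3, 194, 221 and 23.8 in OE_L3, 933, 730 and 849 in WT_L6, and 764, 615 and 731 in OE_L6. The same L3 arrays were high, intermediate and low as for CESA4.

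Genes that act beside the synthases were taken from lists of names. Counts of called genes in these lists stand against 22.4% of all genes higher and 26.8% lower in WT, and 17.2% and 25.4% in OE. Of 9 xylan genes, 7 rose in L6 of WT and 6 in OE, with none lower, led by GT47D (2.44, adjusted p = 0.018), GT43A (1.96, adjusted p = 0.0189) and GT43C (1.22, adjusted p = 0.0234) in WT. Their median log2 difference was 1.02 in WT and 0.94 in OE. Both xyloglucan genes rose in WT (XTH8 by 2.46, adjusted p = 0.0343, and the xylosyltransferase XXT1 by 0.89, adjusted p = 0.00973) and XXT1 in OE.

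Of 6 sucrose synthase genes, whose enzymes supply UDP-glucose for cellulose, SUS6 and SUS5 rose and SUS4 fell in both genotypes. The WT log2 differences were 2.62, 2.48 and -0.86. Of 4 COBRA-like genes, BC1 (3.21, adjusted p = 0.0194) and BC1L2 (1.38, adjusted p = 0.0384) rose in WT, and BC1L9 fell by 3.30 in WT (adjusted p = 0.000105) with a difference of -3.95 in OE, also called. BC1L9 gave 703 to 1943 over the L3 arrays and 57.1 to 165 over the L6 arrays. BC1L6 fell by 1.05 in OE.

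Of 13 endoglucanase genes (5 dim), which cut and remodel glucan chains, 6 rose and 1 fell in WT, and 1 rose in OE. CEL9E (2.78, adjusted p = 0.04), GLU13 (2.49, adjusted p = 0.0354) and GLU2 (1.68, adjusted p = 0.0285) had the largest WT differences, the fall was that of GLU5 (-0.35, dim), and the gene that rose in OE was GLU10 (0.87, adjusted p = 0.0104). Of 4 endo-beta-mannanase genes MAN4 rose and MAN6 and MAN7 fell in both genotypes, by 0.89, -0.44 and -0.67 in WT. The gene table paired no gene with the names listed for cellulose synthesis partners, secondary wall regulators or mixed-linkage glucanases, which were not analysed here.

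Over-expression of miR156 was compared with WT within each leaf. MiR156 is a small RNA that holds plants in the juvenile phase by silencing SPL transcription factor genes, and whether it changes wall genes is the question this comparison addresses. In L3, limma called 0 of the 29 genes, with 0 at an unadjusted p under 0.05, against 0.0894% of all genes called. In L6 it also called 0 of 29, with 0 at an unadjusted p under 0.05, against 0.0503% of all genes. The interaction gave 0 of 29, with 0 at an unadjusted p under 0.05, against 0.0112%.

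What these arrays can bound differed between the leaves. In L3 the difference OE minus WT was 0.79 for CESA4, 0.85 for CESA9 and 0.31 for CESA7, with 95% confidence intervals of -1.45 to 3.03, -1.32 to 3.02 and -1.25 to 1.87. Fitted on the 6 L3 arrays alone the intervals were wider, at -2.40 to 3.98, -2.22 to 3.92 and -1.88 to 2.51. Changes of several fold either way thus lie inside the wider intervals. In L6 CESA4 differed by -0.24 with an interval of -2.48 to 2.01, which carries the spread of L3 through the shared fit. Fitted on the 6 L6 arrays alone the interval of CESA4 was -0.49 to 0.02, that of CESA7 -0.55 to 0.17 and that of CESA9 -0.42 to 0.18, and 0 members were called (0 at an unadjusted p under 0.05). Over the other CESA genes that fit gave intervals that lay between -0.32 and 0.22, except that of CESA2 (-1.99 to 0.23), and over the 20 CSL genes they lay between -0.59 and 0.73.

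CSLE1 was the member closest to the threshold in the interaction, with a difference of leaf differences of 0.57 ± 0.27 (95% interval -0.02 to 1.15, adjusted p = 1.0). OE and WT did not overlap for 2 members in L3, CSLF2 and the dim CSLF7, both lower in OE, against 3.17% of all genes non-overlapping and lower. In L6 they did not overlap for CSLA1, lower in OE, against 7.86% of all genes. CSLF2 gave 200, 190 and 199 in WT_L3 and 166, 186 and 161 in OE_L3, a difference of -0.19 (95% interval -0.41 to 0.03). For CSLA1 in L6 the signals were 829, 773 and 774 in WT and 761, 722 and 752 in OE, a difference of -0.09 (95% interval -0.67 to 0.50).

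None of the xylan, xyloglucan, sucrose synthase, COBRA-like, endoglucanase or endo-beta-mannanase genes passed in an over-expression comparison or in the interaction, and neither did any gene of the cell state lists. At an unadjusted p under 0.05 these lists held 1 sucrose synthase and 1 root gene in L3, 1 COBRA-like and 1 endoglucanase gene in L6, and 1 root gene in the interaction.

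**Figure D5:**
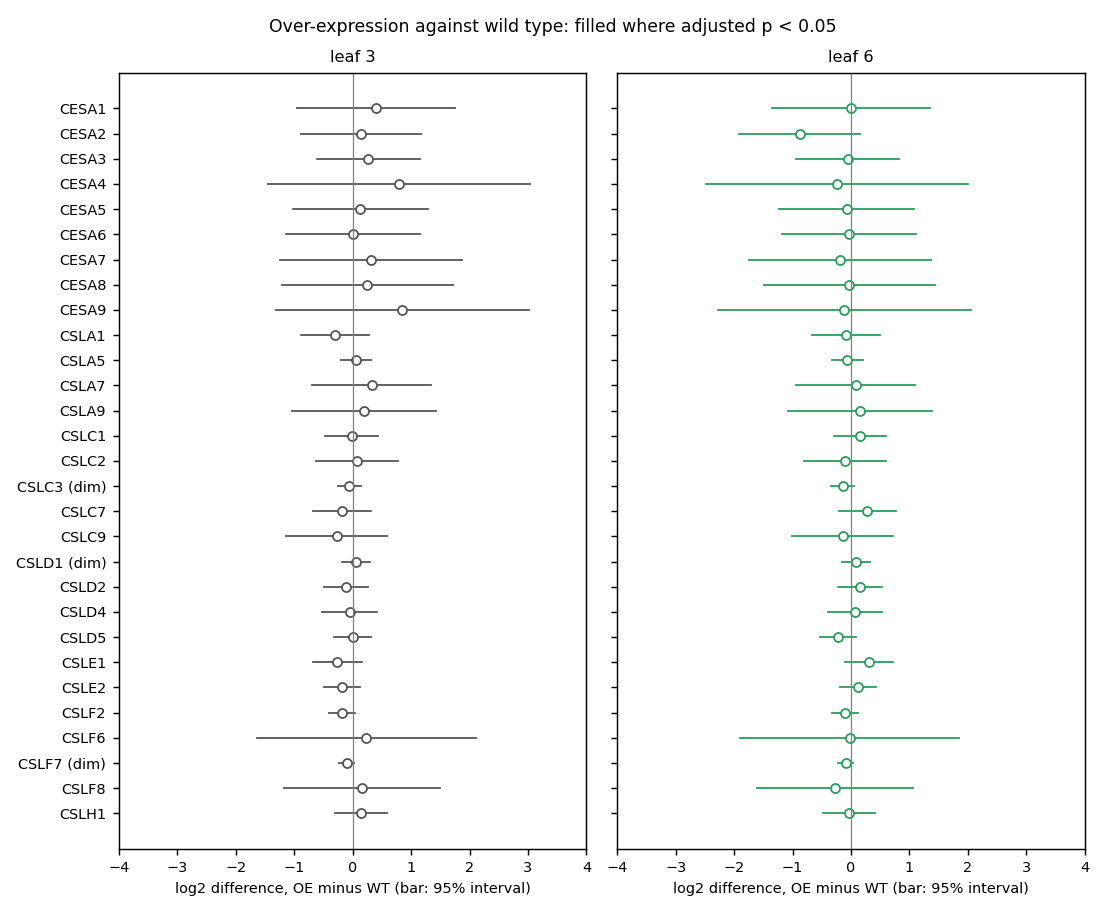
OE minus WT difference on the log2(signal + 16) scale for the 29 genes in L3 (left) and L6 (right). Points are estimates and bars 95% confidence intervals of the 4-group limma fit. All points are open, since 0 genes have an adjusted p under 0.05, and the bars of the CESA genes and CSLF6 are wider than those of CSLE1, CSLH1 or CSLF2.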

How the data were processed

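The authors' deposited values are linear intensities, 1 for each of 57381 probe sets on every array. How the authors summarized and scaled these values is not given in the sources used here, so the unit was read from the values. If totals were set equal, a shift common to all genes could not be seen. Array medians ran from 50.8 to 56.5, and no normalization was added. Arrays have no read depth, and their number limits the precision.

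The deposited intensities were taken as log2(signal + 16), which understates the change of dim genes, and 187 control probe sets were left out. In R 4.3.3, 1 limma 3.58.1 model (lmFit, eBayes with trend) over 57194 probe sets and 4 groups (8 residual degrees of freedom, no filter) gave the leaf and over-expression contrasts and the interaction, two-sided, with Benjamini-Hochberg adjustment over all probe sets and a threshold of 0.05. The fit was tested on simulated data. Names were joined and figures drawn in Python 3.11.15 (pandas 2.3.3, matplotlib 3.10.9).

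Probe sets were named through the platform annotation (22436 name 1 gene, 95 several, 34850 unnamed here) and an NCBI gene table of a later assembly, used only for names and neighbours. Another gene shares the name BC1 and was left out. Full array values are given for CESA4, CESA7 and CESA9 and for the 3 highest and 3 lowest called differences of each leaf comparison. The members and lists were chosen with earlier results of these data known.

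L3 and L6 with the same number come from the same plant or line, per the labels. The main fit of the leaf comparisons had no block, and the plant entered only in alternatives, as a fixed or a random block. For the leaf comparisons the replicate block named below is the plant as a fixed block. Deviations of a plant's leaves from the group means correlated at -0.244, -0.362 and -0.049 in WT and 0.11, 0.151 and 0.204 in OE. WT and OE numbers name unrelated plants. Alternatives were quantile normalization, pseudocounts of 1 and 64, filters at the 40th and 60th percentiles, no trend, only the groups compared, a replicate block, the plant as a random block, a 2-fold minimum, the second-brightest probe set, and each array left out.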

Additional observations from a re-analysis of the deposited data

How the results depend on the processing

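Counts of called members in both over-expression comparisons stayed at 0 under all 23 alternatives, and in the interaction under 22 (fitting only the groups compared gives no interaction). Between the leaves of WT, 19 members were called. The count was 8 with only the groups compared (17 in OE), 17 with a replicate block, 16 with the plant as a random block, and 2 to 24 with arrays left out (2 without WT_L3 replicate 2 or replicate 3, 6, 4 and 5 without WT_L6 replicates 1, 2 and 3). Between the leaves of OE it was 12, and 12 with a replicate block, 9 with the plant as a random block, 5 with a 2-fold minimum, and 3 to 22 with arrays left out (3 without OE_L3 replicate 3, 7 without OE_L6 replicate 2 or 3, 22 without WT_L3 replicate 1). Settings that leave out an array test fewer arrays, and otherwise the cause of these shifts was not tested.

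CSLE2 alone turned sign where the main or the alternative difference was called, and it did so with the second-brightest probe set. In WT that gave a called difference of -0.72 (CSLE2: L6 against L3 in WT, adjusted p = 0.000142), where the main difference was above 0 and not called. In OE it gave -0.91, where the main difference was called as higher. Over members and alternatives in WT, 528 of 659 values kept their side of the threshold, 112 fell short of it and 18 came to pass it. In OE these numbers were 568, 56 and 34. Among the values that kept their side, 1 in WT and 2 in OE changed sign without being called. Beside the calls of CESA2, CESA7, CSLA7, CSLA9, CSLD2 and CSLF7 given with their values, the replicate block changed no other call of a member in the leaf comparisons. Signal close to background limits what can be said of the dim CSLC3, CSLD1 and CSLF7.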
